A study of Mus musculus with 48 samples.

Results

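Corticotropin-releasing hormone (*Crh*), its receptors *Crhr1* and *Crhr2* and its binding protein *Crhbp* were followed in the inferior olive and cerebellum of 2 mouse models of spinocerebellar ataxia type 1 (SCA1). The members were found by gene symbol, and these 4 genes stood among 23672 to 23690 gene symbols per table. The family was chosen by the values of *Crh* in the knockin (KI) inferior olive at both ages, so those values are given as a description with no test. Against their WT controls, KI olives held 3.74-fold less *Crh* at 5 weeks and 4.09-fold less at 12 weeks. None of the 18 tests on the members' other values passed an adjusted p of 0.05 by limma, a linear model fitted across all genes. Another 12 values of the members had a mean under 0.5 FPKM in a genotype and were outside those tests. With low values let in, limma passed 1 of the 12, *Crhbp* in the KI cerebellum at 12 weeks (log2 difference -2.64 ± 0.21, adjusted p = 0.00456). There 5.58% of all genes with means of at least 0.5 FPKM were called.

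CRH is a neuropeptide that drives the stress response when it is released from the hypothalamus onto the pituitary. It is also made by inferior olive neurons, whose axons are the climbing fibers that contact Purkinje cells, and CRH from climbing fibers takes part in long-term depression at the parallel fiber synapse onto those cells. CRHR1 and CRHR2 are receptors that couple mainly to the stimulatory G protein and raise cAMP, CRHR1 binding CRH tightly and CRHR2 preferring the urocortins, while the binding protein holds CRH and urocortin away from both receptors.

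*Atxn1* 154Q/2Q KI mice carried an expanded mouse *Atxn1* allele under its own regulatory elements on a C57BL/6J background. ATXN1-82Q transgenic (Tg) mice expressed expanded human *ATXN1* on an FVB/NJ background from the *Pcp2* promoter, which directs it to Purkinje cells. For each model, tissue (inferior olive or cerebellum) and age (5 or 12 weeks), poly-A RNA of 3 mutant males was compared with that of 3 WT littermates, which gave 8 tables of 6 libraries and 48 libraries in all. The olive and cerebellum of a mouse could both be used, so the 2 tissues need not come from different animals.

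Values are FPKM (fragment counts per unit of transcript length, relative to all fragments mapped in a library) and their errors are SD with n = 3. Each table was scaled on its own, so levels were set against each other across tables as a description only, and every fold change was taken within a table. Fold changes are differences of mean log2(FPKM + 0.1), mutant minus WT control, with SE, and they understate changes of genes near 0. Tests were run on genes whose WT and mutant means both reached 0.5 FPKM, which let through 20 of the 32 pairs of a member and a table. The other 12 were given an exact permutation test, which cannot go below p = 0.1 with 3 against 3. In bulk tissue fewer cells of a type and less RNA per cell cannot be told apart. The tissue labels held against their markers, since *Htr5b*, a serotonin receptor of olivary neurons, was at 2.25 to 9.55 FPKM in olive libraries and 0.0188 to 0.322 in cerebellar ones, and the Purkinje cell gene *Pcp2* at 219 to 851 FPKM in the cerebellum and 1.28 to 22 in the olive. *Atxn1* itself was 0.25 ± 0.07 higher on the log2 scale in the KI olive at both ages (adjusted p = 0.649 and 0.149) and 0.21 ± 0.05 higher in the Tg cerebellum at 5 weeks (adjusted p = 0.0905). It differed by at most 0.07 in the other 5 tables, and the human transgene has no row of its own in tables built on the mouse genome.

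The sequence that carries the hormone lies within exon 2 of 2 of *Crh*, on the minus strand of mouse chromosome 3, and it is shown because it encodes the peptide whose message the KI olive values describe. The stretch at chr3:19693913-19694044 (mm10, GENCODE annotation) holds the 41 codons of mature CRH, then the glycine codon in capitals that donates the terminal amide, the last codon and the stop. These 132 bases close a coding sequence of 564 bases in a transcript of 1320 bases. The FPKM values below count fragments over the whole gene as each table defines it, and not over these bases alone.

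*Crh*, mature peptide codons: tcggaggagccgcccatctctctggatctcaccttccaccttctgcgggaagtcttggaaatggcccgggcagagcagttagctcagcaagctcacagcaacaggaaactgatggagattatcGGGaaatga

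The gene spans positions 19693401 to 19695396 of chromosome 3. In the KI olive table at 5 weeks its deposited locus was wider, from 19692611 to 19699407. *Crhr1* lies on chromosome 11 (104132855 to 104175523, plus strand), *Crhr2* on chromosome 6 (55090049 to 55133016, minus strand) and *Crhbp* on chromosome 13 (95431371 to 95444924, minus strand).

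In WT controls the ligand and its main receptor had opposite tissue patterns. *Crh* stood at group means of 17.7 to 25.1 FPKM in the 4 olive groups and 0.121 to 0.31 FPKM in the 4 cerebellar groups. *Crhr1* was the reverse, with means of 21.6 to 29.9 FPKM in the cerebellum and 7.20 to 8.42 FPKM in the olive. *Crhbp* followed the ligand, at 4.47 to 5.13 FPKM in the olive and 0.228 to 0.977 FPKM in the cerebellum, and *Crhr2* was low in both tissues, between 0.167 and 0.969 FPKM.

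When the 8 WT groups were ordered by mean, no olive library of *Crh*, *Crhr1* or *Crhbp* overlapped a cerebellar one. Within a tissue most neighbors in the order could not be separated by their libraries. Of 7 neighboring pairs, the libraries overlapped in 5 for *Crh*, 6 for *Crhr1*, 5 for *Crhbp* and 7 for *Crhr2*. Among olive groups, *Crh* was highest in the KI controls at 5 weeks (25.1 ± 4.03 FPKM), and the other 3 groups lay between 17.7 and 19.4 FPKM. The table of those KI controls is the one with the wider *Crh* locus, and the part of the locus in that level was not tested.

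At 5 weeks the WT olives held 28.8, 25.7 and 20.8 FPKM of *Crh*, and the KI olives 7.14, 6.26 and 6.35. The lowest control was well above the highest KI library, and the KI mean of 6.58 ± 0.487 FPKM was 26.2% of the WT mean of 25.1 ± 4.03. On the log2 scale the difference was -1.90 ± 0.12. Among these libraries 11.9% of the 13799 genes tested had groups that did not overlap and 0.0145% (2 genes) passed the adjusted threshold. By the size of its log2 fold change *Crh* ranked 3 of 13799 counted from the lowest.

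At 12 weeks the pattern recurred, with WT olives at 20.6, 18.5 and 17.2 FPKM and KI olives at 4.52, 3.87 and 5.21. The KI mean of 4.53 ± 0.671 FPKM was 24.1% of the WT mean of 18.8 ± 1.70, a log2 difference of -2.03 ± 0.11. No KI library came near a control, and *Crh* ranked 5 of 13990 from the lowest. The background at this age was larger, with 1.49% of the genes called and 19.2% with groups apart.

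**Figure D1:**
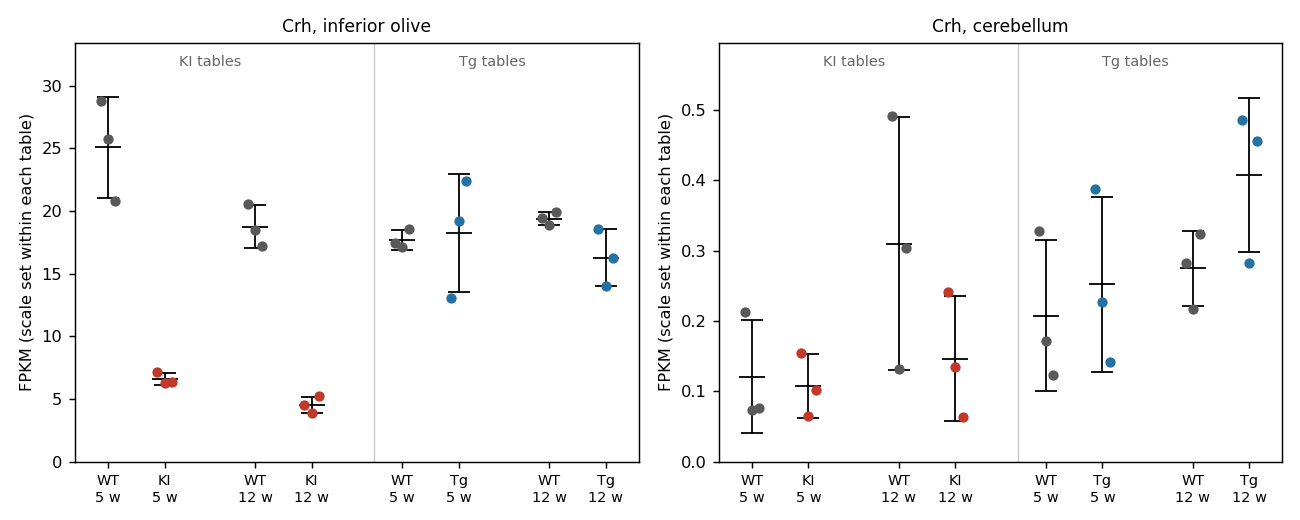
*Crh* in FPKM in each of the 48 libraries, by tissue, model and age, with WT control and mutant libraries as points and bars for the mean ± SD (n = 3). In the KI olive every mutant library, at 3.87 to 7.14 FPKM, sits below every control, at 17.2 to 28.8, while Tg olive libraries lie on both sides of their controls at 5 weeks and under them at 12 weeks, at 13.1 to 22.4 FPKM over both ages, and cerebellar libraries stay under 0.5 FPKM.

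In the Tg olive *Crh* did not pass the test at either age. At 5 weeks the controls held 17.4, 17.1 and 18.6 FPKM and the Tg olives 13.1, 19.2 and 22.4, so that the Tg libraries lay on both sides of the controls. The log2 difference was 0.01 ± 0.16 (limma, adjusted p = 0.9985), in a table where 0% of the genes were called, 911 had an unadjusted p under 0.05 and 12% had groups apart.

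At 12 weeks the Tg olives held 18.6, 14 and 16.3 FPKM against 19.4, 18.9 and 19.9 in their controls. Each Tg library was below each control, and the mean was 16.0% lower, 16.3 ± 2.30 against 19.4 ± 0.514 FPKM. The log2 difference of -0.26 ± 0.09 had an unadjusted p of 0.0239 and did not pass (limma, adjusted p = 0.9993). Groups were apart in 7.59% of the genes of this table, and 0% were called, with 477 at an unadjusted p under 0.05. With the replicate number as a block, which paired these libraries, 4 genes were called and *Crh* was not (adjusted p = 0.725). The difference between the models in *Crh* was not tested, because the KI olive enters it.

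In the cerebellum all 24 libraries held between 0.0637 and 0.492 FPKM of *Crh*, under the level for testing. Mutant and control libraries overlapped in all 4 cerebellar tables, and the exact permutation tests gave p = 0.8 and 0.3 for the KI at 5 and 12 weeks and 0.6 and 0.3 for the Tg. The lowest olive library, a KI olive at 12 weeks with 3.87 FPKM, was above the highest cerebellar one.

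Among the 5 genes whose changes over the 4 olive tables lay nearest to those of *Crh*, by root mean square distance of the log2 fold changes over 12228 genes, were *Htr5b* (0.376), *Stac* (0.645), *Cryba2* (0.649) and *Prlh* (0.694). They were chosen on these fold changes, so their values are a description with no test. *Htr5b* was at 9.55, 6.81 and 7.10 FPKM in WT olives and 2.80, 3.32 and 3.00 in KI olives at 5 weeks, a log2 difference of -1.32 ± 0.14 between groups that did not overlap. At 12 weeks the difference was -1.56 ± 0.13, between 7.57 ± 1.31 and 2.49 ± 0.289 FPKM. Its Tg differences were -0.05 and -0.30 at 5 and 12 weeks.

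*Stac*, an adaptor of calcium channels, differed by -0.97 at 5 weeks and -1.15 at 12 weeks in the KI olive. *Cryba2*, a crystallin, differed there by -1.04 and -1.16, and *Prlh*, prolactin-releasing hormone, by -0.91 and -1.07.

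**Figure D2:**
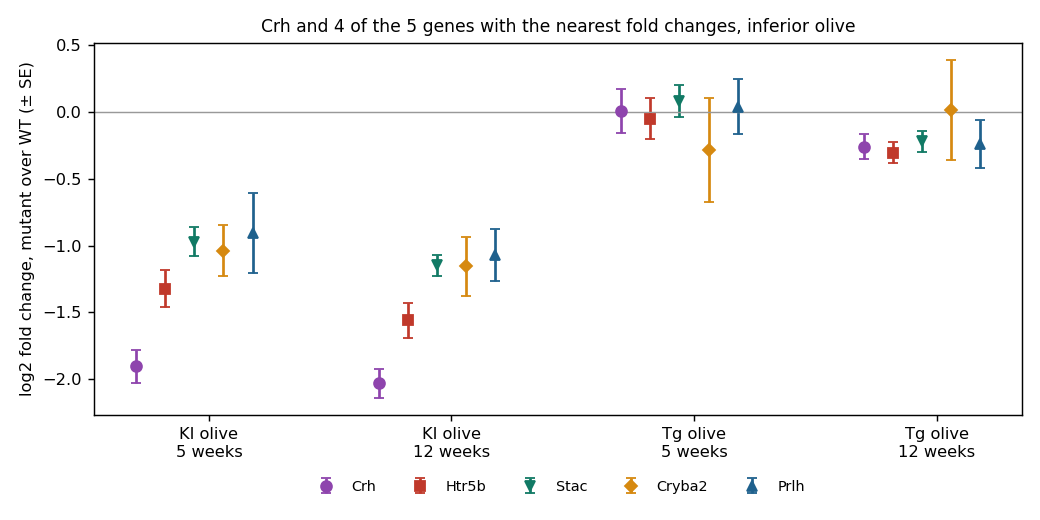
Mutant over WT log2 fold changes of *Crh* and 4 of the 5 genes nearest to it, in the 4 inferior olive tables. The genes were chosen for this likeness, and all 5 shown lie between -2.03 and -0.91 in the KI olive and between -0.30 and 0.09 in the Tg olive.

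Of 9 marker genes of inferior olive neurons, the cells that make CRH, 5 were called lower in the KI olive at 12 weeks, when 1.23% of all genes were called lower, and the median of the list was -0.30 against -0.01 over all genes tested. *C1ql1*, the complement-like protein that olivary neurons supply to climbing fiber synapses, fell by 0.80 ± 0.10, from 39.2 ± 3.31 to 22.6 ± 3.34 FPKM (adjusted p = 0.0124). *Calb1*, a calcium buffer, fell by 0.52 ± 0.06 (adjusted p = 0.0102), *Pou4f1*, a transcription factor, by 0.64 ± 0.10 (adjusted p = 0.0216) and *Cacna1g*, a T-type calcium channel subunit, by 0.30 ± 0.05 (adjusted p = 0.0314).

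*Htr5b* was the fifth. It is also among the genes chosen for nearness to *Crh* in these libraries, so its call is a description and no test. *Slc17a6*, the vesicular glutamate transporter of these and many other brainstem neurons, was at 76.6, 80.2 and 77.7 FPKM in WT olives and 79.7, 72.5 and 80.3 in KI olives, which overlapped. The count of 5 was 1 without WT replicate 2 or WT replicate 3 and 3 without KI replicate 1 or WT replicate 1. At 5 weeks limma called 0 of the 9 lower, with 4 at an unadjusted p under 0.05 and the same median of -0.30. The summed level of the list was 195 to 217 FPKM in WT and 175 to 181 FPKM in KI olives at 5 weeks, and 193 to 197 against 145 to 166 at 12 weeks, and no marker was at 0 in all libraries of a table.

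Markers of other cells differed in the same KI olive libraries. The 10 markers of other medullary neurons (cholinergic, glycinergic and monoaminergic) summed to 153 to 155 FPKM in WT and 125 to 135 FPKM in KI olives at 5 weeks, and to 157 to 171 against 122 to 142 at 12 weeks. Of these, 2 of 8 tested were called lower at 12 weeks, against 1.23% of all genes, both serotonergic: *Tph2*, tryptophan hydroxylase, fell by 0.71 ± 0.07 and *Slc6a4*, the serotonin transporter, by 0.73 ± 0.12 (adjusted p = 0.00323 and 0.0327). The count was 1 when any library but KI replicate 3 was left out. Granule cell markers summed to 187 to 199 against 143 to 163 FPKM at 5 weeks and 188 to 193 against 145 to 160 at 12 weeks, with 0 of 7 called at 5 weeks (3 at an unadjusted p under 0.05, median -0.35) and 1 of 7 at 12 weeks (*Calb2*, median -0.09).

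Among glial markers in the KI olive at 12 weeks, 2 of 5 of astrocytes were called lower (*Gja1* and *Aqp4*, median -0.27), with sums of 465 to 528 FPKM in WT and 401 to 421 in KI olives, and the count was 1 without KI replicate 1, 2 or 3 or WT replicate 2 or 3. At 5 weeks limma called 0 of these 5, with 0 at an unadjusted p under 0.05. Of 6 oligodendrocyte markers 1 was called lower at 12 weeks, against 1.23% of all genes. All 6 were negative, 4 had an unadjusted p under 0.05 and the median was -0.11. Their sums were 6170 to 6525 FPKM in WT and 5646 to 5824 in KI olives, and the count was 0 to 1 with a library left out. At 5 weeks 0 of the 6 were called and the median was 0.03. Choroid plexus markers had medians of 2.19 at 5 weeks and -1.26 at 12 weeks, with 0 called (3 and 0 at an unadjusted p under 0.05). Microglial markers had 0 called at either age, 0 and 1 at an unadjusted p under 0.05, with medians of -0.02 and -0.01. Leptomeningeal markers had medians of 0.52 and 0.09 at 5 and 12 weeks, with 0 called (4 and 0 at an unadjusted p under 0.05). No marker of these lists was at 0 throughout a table, and their part in the fall of *Crh* was not tested.

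In the Tg olive limma called 0 of the 9 inferior olive markers at either age. At 5 weeks 0 had an unadjusted p under 0.05 and the median was 0.08. At 12 weeks all 9 had a negative difference, 5 with an unadjusted p under 0.05, and the median was -0.13 against 0.00 over all genes. Their sum was 196 to 199 FPKM in WT and 181 to 183 FPKM in Tg olives, beside the *Crh* difference of -0.26 in the same libraries.

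*Crhr1*, the receptor that binds CRH most tightly, was higher in every cerebellar library than in any olive library, at 15.8 to 39.1 against 5.33 to 8.96 FPKM. In the KI cerebellum at 5 weeks the controls held 30.8, 30.7 and 28.2 FPKM and the KI libraries 20.9, 22.3 and 15.8. All 3 KI libraries were below all 3 controls, and the mean of 19.7 ± 3.44 FPKM was 34.2% lower than 29.9 ± 1.45. The log2 difference was -0.62 ± 0.13 with an unadjusted p of 0.00164, which did not pass over all genes (limma, adjusted p = 0.8829). Among these libraries 0.0074% of 13508 genes, a single gene, were called and 9.54% had groups apart.

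At 12 weeks the KI cerebella held 19.9, 21.8 and 18 FPKM of *Crhr1*, close to those of 5 weeks, while their controls ranged widely, at 21.3, 39.1 and 28.3. The groups overlapped at the control of 21.3 FPKM, and the log2 difference was -0.53 ± 0.20 (unadjusted p = 0.028, adjusted p = 0.1493). Without that control, WT replicate 1, the difference was -0.74 and passed (adjusted p = 0.019). With all 6 libraries 5.58% of the genes, 749 in number, were called and 32.1% had groups apart. Leaving out a library gave between 100 and 1222 calls. That control also held the most *Slc17a6* in the table, 41.2 FPKM against 6.01 to 23.7 in the other 5 libraries.

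In the Tg cerebellum *Crhr1* did not separate the genotypes at 5 weeks, with controls at 22.6, 23.1 and 19.1 FPKM and Tg libraries at 21.6, 22.1 and 19.0. The log2 difference was -0.05 ± 0.08 (adjusted p = 0.8677), in a table where 4.1% of the genes were called and 20.1% had groups apart. At 12 weeks the controls held 22.4, 24.7 and 27.7 FPKM and the Tg libraries 21, 18.6 and 19.1, and the groups no longer overlapped. The mean was 21.4% lower, 19.6 ± 1.26 against 24.9 ± 2.65 FPKM, and the log2 difference of -0.34 ± 0.09 lay at the threshold without passing it (unadjusted p = 0.00405, adjusted p = 0.0522). Without WT replicate 1 it was -0.42 and passed (adjusted p = 0.0483). With all 6 libraries 7.51% of the genes, 1025 in number, were called at this age and 29.2% had groups apart. Leaving out a library gave between 437 and 990 calls.

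**Figure D3:**
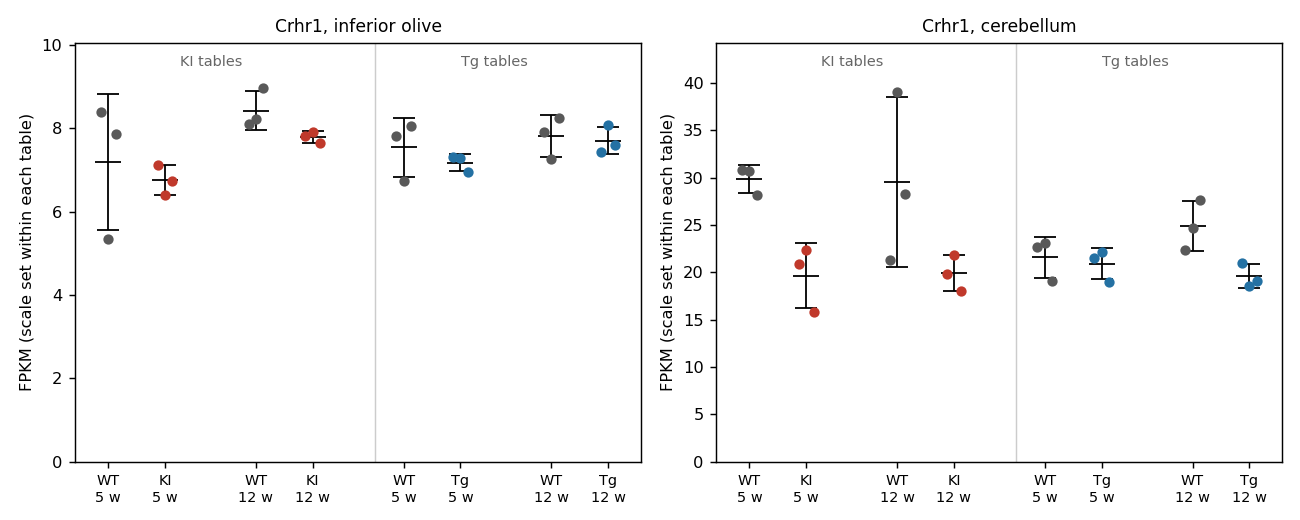
*Crhr1* in FPKM in each of the 48 libraries, by tissue, model and age, with bars for the mean ± SD (n = 3). KI cerebella lie at 15.8 to 22.3 FPKM at both ages, below all controls at 5 weeks but not at 12 weeks, Tg cerebella separate from their controls at 12 weeks only, and olive libraries lie between 5.33 and 8.96 FPKM in both genotypes.

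Markers of the Purkinje cells, which are among the cerebellar cells that carry *Crhr1*, moved in the same libraries. The 11 markers summed to 4462 to 5251 FPKM in WT and 4027 to 4187 FPKM in KI cerebella at 5 weeks, and to 3933 to 4627 against 3181 to 3342 at 12 weeks. In the Tg cerebellum they summed to 4166 to 4569 FPKM in WT and 2011 to 2244 in Tg at 5 weeks, and to 3721 to 4602 against 1503 to 1667 at 12 weeks. The Tg cerebellum at 5 weeks thus had all 11 markers called lower, with a median of -0.97, while *Crhr1* differed by -0.05. There 3.67% of all genes were called lower, and 5.26% at 12 weeks, when all 11 were again lower with a median of -1.35.

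In the KI cerebellum at 12 weeks 4 of the 11 markers were called lower (median -0.29), when 3.57% of all genes were, among them *Pcp2*, which fell by 0.36 ± 0.05 from 644 ± 30.4 to 501 ± 20.6 FPKM (adjusted p = 0.013). The count was 11 without WT replicate 1 and 2 without KI replicate 1 or 3. At 5 weeks limma called 0 of 11, with 3 at an unadjusted p under 0.05 and a median of -0.18. Granule cell markers summed to 1185 to 1712 FPKM in WT and 1825 to 1903 in KI cerebella at 12 weeks, when 1 of 8 (*Calb2*) was called higher, or 0 without KI replicate 1, 2 or 3 and 2 without WT replicate 2, and to 1656 to 2037 against 1660 to 1978 at 5 weeks, where they overlapped. In the Tg cerebellum at 12 weeks they summed to 1441 to 1726 FPKM in WT and 1211 to 1316 in Tg, and 4 of 8 were called lower (median -0.37), or 2 without WT replicate 1 or Tg replicate 1, 2 or 3. Oligodendrocyte markers in the KI cerebellum at 12 weeks summed to 1991 to 3025 FPKM in WT and 1724 to 1757 in KI. There 1 of 6 was called lower, or 0 to 6 with a library left out. All 6 had an unadjusted p under 0.05, with a median of -0.44. In the Tg cerebellum at 12 weeks their median was 0.33, with 0 called and 6 at an unadjusted p under 0.05. No marker was at 0 throughout a table, and the part of these cells in the *Crhr1* differences was not tested.

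In the inferior olive *Crhr1* passed in no table. The log2 differences were -0.06 ± 0.16 and -0.11 ± 0.05 in the KI at 5 and 12 weeks and -0.07 ± 0.07 and -0.02 ± 0.06 in the Tg (adjusted p = 0.9973, 0.4305, 0.9347 and 0.9993). The KI libraries at 12 weeks were all just below the controls, at 7.79 ± 0.138 against 8.42 ± 0.468 FPKM, and the other 3 tables overlapped.

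*Crhr2*, the receptor that prefers urocortins, was at the edge of detection, from 0.117 to 1.53 FPKM in the olive and 0.00917 to 0.814 in the cerebellum, and passed the filter in 2 of 8 tables. In the Tg olive at 5 weeks the controls held 0.522, 0.377 and 0.546 FPKM and the Tg libraries 0.604, 0.946 and 1.36, all higher (exact permutation p = 0.1, two-sided, the smallest it can give). At 12 weeks the order was the other way, with controls at 1.35, 0.756 and 0.51 FPKM and Tg libraries at 0.433, 0.465 and 0.269, all lower (exact p = 0.1). Of the genes past the filter, 12% had groups apart at 5 weeks and 7.59% at 12 weeks.

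*Ttr*, transthyretin, a defining gene of choroid plexus epithelium, moved with *Crhr2* in those libraries. It was at 641, 630 and 1059 FPKM in WT and 988, 1762 and 3006 in Tg olives at 5 weeks, and at 3358, 1915 and 827 against 1226, 673 and 29.8 at 12 weeks. In each of the 4 olive tables the library with the most *Crhr2* was also the one with the most *Ttr*, and the library with the least *Crhr2* was the one with the least *Ttr* in 3 of 4. *Folr1*, another gene of that epithelium, shared the highest and the lowest library with *Crhr2* in 4 of 4 olive tables. In the cerebellum both genes shared the highest library with *Crhr2* in 2 of 4 tables and the lowest in 4 of 4. For each of the 2 genes, all 6 libraries stood in the same order as for *Crhr2* in 1 of 4 olive tables and 0 of 4 cerebellar ones.

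None of the 11 choroid plexus markers was at 0 throughout any of the 8 tables. They summed to 1024 to 1564 FPKM in WT and 1458 to 4012 in Tg olives at 5 weeks and to 1235 to 4393 against 218 to 1712 at 12 weeks. By limma 0 of the 11 were called at either age, with 11 and 4 at an unadjusted p under 0.05, and the medians were 0.96 and -1.71. Their part in the *Crhr2* differences was not tested.

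*Crhr2* in the KI olive was at 0.117, 0.131 and 0.254 FPKM in WT and 0.202, 0.565 and 0.66 in KI at 5 weeks (exact p = 0.2), and at 1.53, 0.38 and 0.993 against 1.00, 0.751 and 0.176 at 12 weeks, both of which overlapped. The fit at 12 weeks gave -0.58 ± 0.58 (adjusted p = 0.7259). *Ttr* in the same order was at 17.5, 157, 5.32, 20.6, 1257 and 1324 FPKM at 5 weeks and 4309, 834, 2465, 2571, 1816 and 16.7 at 12 weeks. The single KI library at 16.7 FPKM of *Ttr* was also the lowest for *Crhr2*.

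In the cerebellum all 4 tables overlapped for *Crhr2*. The Tg at 12 weeks, the only table there in which it was tested, had controls at 0.377, 0.426 and 0.742 FPKM and Tg libraries at 0.659, 0.814 and 0.721, a log2 difference of 0.48 ± 0.25 that did not pass (adjusted p = 0.2944). Exact permutation tests of the others gave p = 0.5 and 0.8 for the KI at 5 and 12 weeks and 0.3 for the Tg at 5 weeks.

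*Crhbp*, which sequesters the ligand, lay between 3.56 and 9.09 FPKM over all 24 olive libraries, and mutant and control libraries overlapped in each olive table. The log2 differences were 0.15 ± 0.14 and -0.06 ± 0.19 in the KI olive at 5 and 12 weeks and 0.24 ± 0.21 and 0.13 ± 0.16 in the Tg olive (adjusted p = 0.9861, 0.9251, 0.9249 and 0.9993). In the KI olive at 12 weeks, where *Crh* was at 24.1% of its control level, *Crhbp* was at 94.5% of its own, 4.23 ± 0.772 against 4.47 ± 1.22 FPKM. The highest olive value, 9.09 FPKM, was that of Tg replicate 3 at 5 weeks, which also held the most *Crh* of its table, 22.4 FPKM.

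In the KI cerebellum at 12 weeks *Crhbp* was at 0.87, 0.505 and 0.755 FPKM in controls and 0.0141, 0.0229 and 0.0486 in KI libraries. Every KI library was below every control and the mean was 4.01% of theirs, 0.0285 ± 0.0179 against 0.710 ± 0.187 FPKM. Among the genes past the filter in these libraries, 32.1% had groups apart and 5.58% were called. The mean in KI cerebella left the gene out of the filter, and the exact permutation test gave its smallest value, p = 0.1. With no filter on low values limma gave a log2 difference of -2.64 ± 0.21 that passed (adjusted p = 0.00456). At 5 weeks the controls held 0.59, 0.0374 and 0.0582 FPKM and the KI libraries 0.516, 0.0492 and 0.311, so both genotypes had libraries at the high and at the low level (exact p = 0.9).

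Chosen after their values were seen, 2 neuronal genes were lower in the same libraries, so their values are a description with no test. *Slc17a6*, which cerebellar nuclear and brainstem neurons express, was at 41.2, 17.5 and 23.7 FPKM in WT and 6.01, 6.81 and 8.04 in KI cerebella at 12 weeks (log2 difference -1.88). *Sst*, somatostatin, was at 48.8, 20.3 and 30.1 against 3.25, 2.43 and 4.03 FPKM (-3.25 ± 0.31).

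At 5 weeks *Slc17a6* was at 24.4, 9.61 and 6.55 FPKM in WT and 20.8, 7.70 and 16.3 in KI cerebella. The libraries with most *Crhbp* at that age, WT replicate 1 and KI replicate 1, were also those with most *Slc17a6*. Over the 4 cerebellar tables *Crhbp* and *Slc17a6* had the same highest library in 3, the same lowest in 2 and the same order of all 6 in 1. *Sst* and *Crhbp* had the same highest library in 3 and the same lowest in 0. The part of cells that express *Slc17a6* or *Sst* in the *Crhbp* difference was not tested.

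In the Tg cerebellum *Crhbp* was slightly higher in the mutants, without passing. The controls held 0.636, 0.665 and 0.637 FPKM at 5 weeks and the Tg libraries 0.657, 0.945 and 1.06, which gave 0.38 ± 0.17 (adjusted p = 0.3645). At 12 weeks they held 1.17, 0.825 and 0.937 against 1.26, 1.02 and 1.31 FPKM, which gave 0.27 ± 0.17 (adjusted p = 0.3934). The groups overlapped at both ages, and *Slc17a6* at 12 weeks was at 19.98, 19.9 and 29.3 FPKM in WT and 31.8, 30.9 and 36.9 in Tg cerebella.

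**Figure D4:**
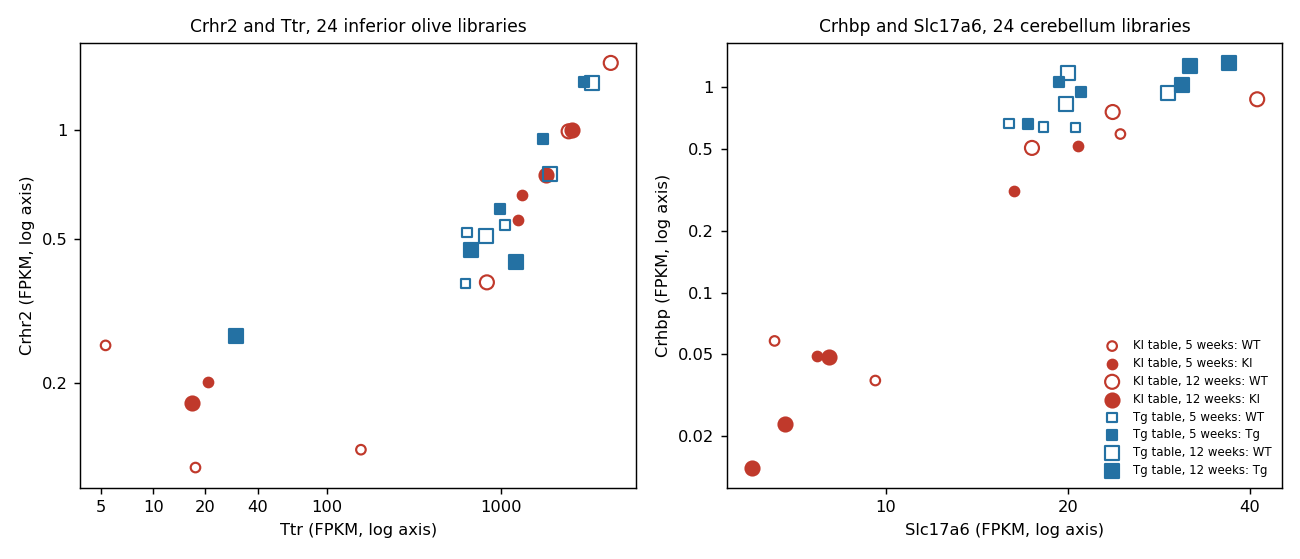
Each point is a library, in FPKM on log axes, with *Crhr2* against the choroid plexus gene *Ttr* in the 24 olive libraries and *Crhbp* against the glutamate transporter gene *Slc17a6* in the 24 cerebellar libraries. Libraries high in *Ttr* tend to be high in *Crhr2*, and the 3 KI cerebella at 12 weeks lie at 0.0141 to 0.0486 FPKM of *Crhbp* with *Slc17a6* at 6.01 to 8.04 FPKM.

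The other ligands of these receptors did not reach the level for testing in any table. *Ucn*, urocortin, was at group means of 0.0861 to 0.411 FPKM in the olive and at most 0.403 in the cerebellum. *Ucn2* and *Ucn3*, which act on CRHR2, stayed at or under means of 0.40 and 0.133 FPKM. The highest single value of the 3 genes was 1.1 FPKM of *Ucn* in Tg replicate 1 of the cerebellum at 12 weeks.

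Several other neuropeptide precursors fell with *Crh* in the KI olive. Of 37 listed precursors, which did not include *Crh*, 22 were tested at 12 weeks, 6 were called lower and 0 higher (11 at an unadjusted p under 0.05), against 1.23% of all genes called lower, with a median of -0.27 against -0.01 over all genes. *Cck*, cholecystokinin, fell by 1.00 ± 0.09, from 37.6 ± 3.26 to 18.7 ± 2.37 FPKM (adjusted p = 0.00323). *Trh*, thyrotropin-releasing hormone, fell by 0.62 ± 0.07 from 19.7 ± 1.57 to 12.8 ± 0.65 FPKM (adjusted p = 0.00565), *Sst* by 0.42 ± 0.05 (adjusted p = 0.00658) and *Nppc*, C-type natriuretic peptide, by 0.81 ± 0.11 (adjusted p = 0.0138). The count was 3 without WT replicate 2 or without a mean-variance trend. At 5 weeks limma called 0 of 22, with 7 at an unadjusted p under 0.05 and a median of -0.14, and 3 without WT replicate 2.

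In the Tg olive limma called 0 of 24 precursors at either age, with 4 and 2 at an unadjusted p under 0.05 and medians of 0.00 and -0.07. In the KI cerebellum 0 of 16 were called at 5 weeks, with 4 at an unadjusted p under 0.05. At 12 weeks 4 of 14 fell there, against 3.57% of all genes, *Sst*, *Cck* (-0.96), *Npy*, neuropeptide Y (-0.67), and *Vgf* (-0.61), with adjusted p between 0.00233 and 0.0375. *Cck* also fell in the Tg cerebellum, by 1.03 ± 0.08 at 5 weeks, when it was the 1 precursor called of 18 (3.67% of all genes were called lower), and by 1.29 ± 0.07 at 12 weeks (adjusted p = 7.81e-05 and 5.63e-05). Of 19 precursors at 12 weeks, when 5.26% of all genes were called lower, *Npy* fell too (-0.54, adjusted p = 0.0075), and *Adcyap1*, the precursor of PACAP, rose by 0.78 ± 0.17 (adjusted p = 0.0372), and without WT replicate 3 the count was 7 in place of 3.

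CRH receptors signal through cAMP. Of 36 genes of the cAMP pathway and receptor regulation, limma called 0 in 5 of the 8 tables, namely the KI olive and KI cerebellum at 5 weeks, the Tg olive at 5 and 12 weeks and the Tg cerebellum at 5 weeks, with 4, 2, 2, 1 and 5 at an unadjusted p under 0.05. In the KI olive at 12 weeks *Gnas*, the stimulatory G protein subunit, was the 1 gene called, in a table with 1.49% of all genes called, and fell by 0.20 ± 0.04 from 1414 ± 36.2 to 1235 ± 11.3 FPKM (adjusted p = 0.046). That call was lost when any single library was left out and under 4 other settings. In the KI cerebellum at 12 weeks 2 of 36 were called, near the 5.58% of all genes. There *Adrbk2*, a kinase that desensitizes receptors, fell by 0.35 ± 0.04 (adjusted p = 0.00576) and *Arrb1*, an arrestin, by 0.22 ± 0.04 (adjusted p = 0.0306), and leaving out single libraries gave counts of 1 (KI replicate 1, 2 or 3 or WT replicate 3) or 4 (WT replicate 1 or 2).

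In the Tg cerebellum at 12 weeks 4 of 36 were called, against 7.51% of all genes. There *Adcy1*, a calcium-stimulated adenylyl cyclase, fell by 0.43 ± 0.09, from 233 ± 21.6 to 173 ± 13.2 FPKM (adjusted p = 0.025). The CREB coactivators *Crtc1* and *Crtc2* fell by 0.34 and 0.26, and *Rapgef3*, a cAMP-activated exchange factor, rose by 0.41 (adjusted p = 0.0277, 0.0365 and 0.0373). The count of 4 was 0 without Tg replicate 3 or WT replicate 1, 1 without Tg replicate 2 or WT replicate 2 and 2 without Tg replicate 1. The list's median was 0.00 in this table and between -0.05 and 0.00 in the other 7, against -0.02 to 0.01 over all genes.

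At the climbing fiber synapse, where CRH is released, 15 genes of synapse organization and long-term depression were tested. In the Tg cerebellum 8 fell at 5 weeks (median -0.23) and 10 at 12 weeks (median -0.44), against 3.67% and 5.26% of all genes called lower, none rose, and *Plcb3*, a phospholipase of Purkinje cells, fell from 20.3 ± 3.08 to 7.69 ± 0.363 FPKM at 12 weeks (adjusted p = 0.000278). In the KI cerebellum *Plcb3* was the 1 gene called at 12 weeks, against 3.57% of all genes called lower (-0.89 ± 0.07, adjusted p = 0.00186), and limma called 0 at 5 weeks, with 3 at an unadjusted p under 0.05. In the KI olive at 12 weeks 2 of the 15 fell, *C1ql1* and *Cbln1*, against 1.23% of all genes, and the count was 0 without WT replicate 2 or 3 and 1 without KI replicate 2. The counts were 0 in the other 3 olive tables, with at most 2 at an unadjusted p under 0.05. Without WT replicate 1 the KI cerebellum at 12 weeks had 6 called.

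Of the genes of the glucocorticoid axis downstream of pituitary CRH action, 13 were tested in each table. In the KI olive at 12 weeks 2 of 13 were called lower, against 1.23% of all genes. There *Dusp1*, a phosphatase induced by glucocorticoids, fell by 0.37 ± 0.05 and *Hsd11b1*, which regenerates active glucocorticoid, by 0.48 ± 0.08 (adjusted p = 0.0181 and 0.0348). The count was 0 without KI replicate 2, WT replicate 2 or WT replicate 3 and 1 without KI replicate 1 or WT replicate 1. In the other 7 tables limma called 0, with between 1 and 6 at an unadjusted p under 0.05.

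Hormone genes of the pituitary, the classical site of *Crhr1*, were high in some libraries. The growth hormone gene *Gh* reached 854 FPKM in Tg replicate 3 of the olive at 12 weeks, where *Pomc*, the pituitary target of CRH, was at 34.3 FPKM against 0.934 to 2.81 in the other 5 libraries of that table. *Crhr1* there was at 7.60 FPKM, within the range of the other olives. *Gh* was also high, at 616 FPKM, in Tg replicate 3 of the cerebellum at 12 weeks, where *Crhr1* was at 19.1 FPKM, between the other Tg libraries.

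**Figure D5:**
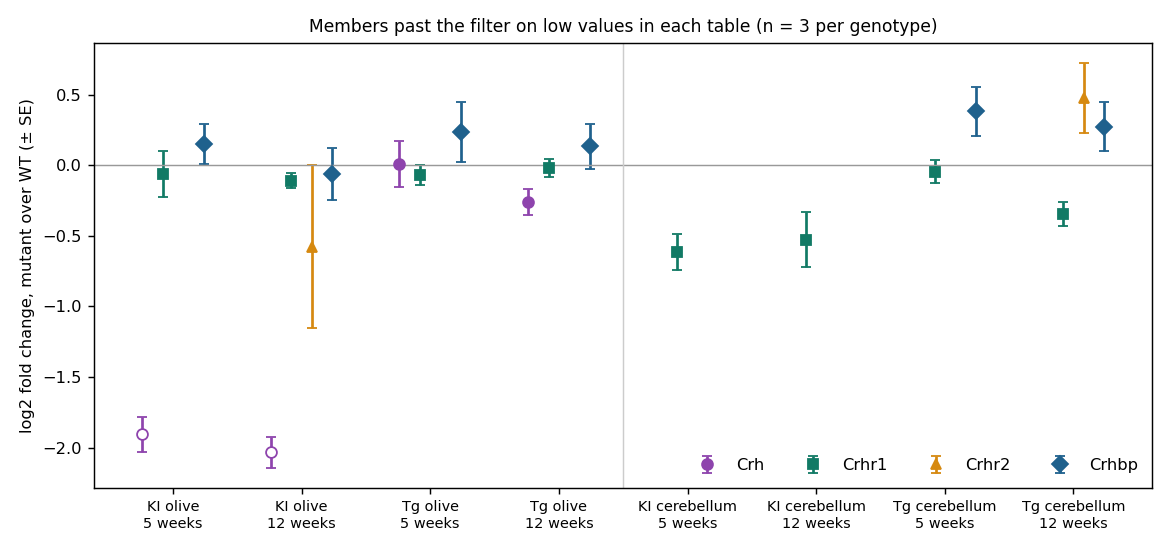
Mutant over WT log2 fold changes of the 4 members in the 8 tables on log2(FPKM + 0.1), bars giving the SE, with open circles for *Crh* in the KI olive, the values that chose the family. The open circles lie near -2, and *Crhr1* lies below 0 in the KI cerebellum at both ages and the Tg cerebellum at 12 weeks. *Crh* in the Tg olive at 12 weeks lies at -0.26 ± 0.09, and the remaining tested values lie between -0.58 and 0.48. Of the 32 pairs of a member and a table, 12 lay under the filter on low values and are not drawn.

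Whether a member's change differed between tissues, models or ages was tested with interaction terms over the 12 libraries of 2 tables, leaving out terms for *Crh* that involve the KI olive. The terms between tissues took the 12 libraries as independent, although the olive and cerebellum of a mouse could both be used. None of the 20 terms passed by limma, 4 had an unadjusted p under 0.05 and the lowest adjusted p was 0.133. All 4 concerned *Crhr1*. The olive minus cerebellum difference was 0.55 ± 0.23 in the KI at 5 weeks (adjusted p = 0.9999, 0% of all genes called) and 0.32 ± 0.11 in the Tg at 12 weeks (adjusted p = 0.1333, 4.87% called). The KI minus Tg difference in the cerebellum at 5 weeks was -0.57 ± 0.17 (adjusted p = 0.2739, 0.825% called), and the 12 minus 5 week difference in the Tg cerebellum was -0.30 ± 0.13 (adjusted p = 0.3399, 0.0877% called).

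In the other comparisons the shares of genes called were 1.99% between the tissues of the KI at 12 weeks and 2.53% between those of the Tg at 5 weeks. Between the models they were 0.0157% in the olive at 5 weeks, 0.211% in the olive at 12 weeks and 11.7% in the cerebellum at 12 weeks. Between the ages they were 0% in the KI olive, the KI cerebellum and the Tg olive. A separation of *Crhr1* in the KI cerebellum at 5 weeks and not in the Tg cerebellum is therefore not shown to be a difference between the models.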

How the data were processed

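The authors used TopHat2 (v2.1.0) to align paired-end, poly-A selected reads to the mm10 genome and deposited FPKM per gene and library from Cufflinks (v2.2.1), scaled over the 6 libraries of each table. Read counts were not used here, so depth in fragments is unknown. From the lowest FPKM values the deepest library of a table held 1.15 to 1.96 times the fragments of the shallowest. Columns with the authors' group averages and Cuffdiff fold changes, p-values and q-values were not used.

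Mutants were compared with WT controls within each table by limma 3.58.1 in R 4.3.3 (empirical Bayes with a mean-variance trend) on log2(FPKM + 0.1), for genes whose WT and mutant means both reached 0.5 FPKM. The Benjamini-Hochberg adjustment ran over every gene tested, with a threshold of 0.05. Members under the filter were given two-sided exact permutation tests. Rows that share a symbol were tested separately, lists took the most abundant of them, and interaction terms used symbols unique in both tables. Replicates are separate mice by the study's methods. The same replicate numbers in both genotypes were checked for pairing, and deviations of same-numbered libraries all correlated above 0.1 in the Tg inferior olive at 12 weeks alone (0.254, 0.115 and 0.256).

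The members and lists were chosen with earlier results of these data known. Beside the members, the text names up to 4 called genes of a list by smallest adjusted p, and 4 of the 5 genes nearest to *Crh*, of which 1 is not reported here. *Ttr*, *Folr1*, *Slc17a6*, *Gh*, *Pomc*, *Cacna1g* and, beside *Crhbp*, *Sst* were named after their values were seen. Whether counting used strand is not given in the sources used here. Methods were tested on simulated data. Alternatives were a pseudocount of 1, no filter, no trend, rescaling by the median, a replicate block and leaving out each library.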

Additional observations from a re-analysis of the deposited data

Results flagged for a closer look

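*Crhr2* in the Tg inferior olive differed in opposite directions at the 2 ages: every Tg library was above every control at 5 weeks (2.01 times the WT mean) and below every control at 12 weeks (0.446 times the WT mean). Groups were apart in 12% of the genes past the filter at 5 weeks and in 7.59% at 12 weeks. The difference between the ages was not tested, because *Crhr2* lay under 0.5 FPKM in a genotype of each table. The choroid plexus gene *Ttr* was higher in Tg than in WT olives on average at 5 weeks and lower at 12 weeks, and its part was not tested.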

How the results depend on the processing

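The 24 member values (20 log2 fold changes within tables and 4 interaction terms) were recomputed under 280 alternatives, of which 262 kept the direction and the side of the threshold, 16 turned the sign of a difference that had not passed and 2 passed. The 24 include the 2 *Crh* values of the KI olive, which chose the family and had no test. Each kept its direction under all 11 of its alternatives, and these are counted in the 262. These 24 leave out the 12 values under the filter. With no filter 1 of those 12 passed, *Crhbp* in the KI cerebellum at 12 weeks (limma, adjusted p = 0.00456). With the filter 5.58% of the genes were called there. For *Crh* the KI olive values lay between -2.03 and -1.80 at 5 weeks and between -2.14 and -1.93 at 12 weeks with any library left out. The Tg olive value at 5 weeks, near 0, was -0.002 after rescaling the libraries to the same median and -0.16 to 0.23 with a library left out. With a library left out, *Crhr1* was -0.264 to 0.058 in the KI olive at 5 weeks, -0.069 to 0.022 in the Tg olive at 12 weeks, -0.131 to 0.021 in the Tg cerebellum at 5 weeks, -0.74 to -0.30 in the KI cerebellum at 12 weeks and -0.42 to -0.26 in the Tg cerebellum at 12 weeks. In the last 2 tables the lower end came without WT replicate 1 and passed. *Crhr2* was -1.069 to 0.028 in the KI olive at 12 weeks, and *Crhbp* -0.20 to 0.15 in the KI olive at 12 weeks, -0.055 to 0.408 in the Tg olive at 5 weeks and -0.066 to 0.246 in the Tg olive at 12 weeks. Of 20 interaction terms 1 was called without WT replicate 1 of the KI cerebellum at 12 weeks, and 0 with any other library left out.

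With the replicate number as a block the fold changes were the same by construction and no member's call changed (*Crhr1* in the Tg cerebellum at 12 weeks had an adjusted p of 0.0884, in the KI cerebellum at 5 weeks 0.18). The block gave 7 genes called in the KI olive at 5 weeks, 81 at 12 weeks, 3 in the Tg olive at 5 weeks and 288 in the KI cerebellum at 12 weeks. Leaving out a library gave 0 to 19 calls in the KI olive at 5 weeks and 38 to 163 at 12 weeks, 100 to 1222 in the KI cerebellum at 12 weeks and 437 to 990 in the Tg cerebellum at 12 weeks, while the fit without a trend gave 101 in the KI olive and 422 in the KI cerebellum at 12 weeks. Causes of these changes were not tested. Depth in fragments is unknown, which limits members near 0 most, and 3 mice a group limit all tests.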

Other observations

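*Gnas*, the G protein subunit through which CRH receptors signal, was listed in the KI olive at 5 weeks at 8919 ± 6440 FPKM in KI and 1027 ± 631 FPKM in WT libraries. In the other 3 olive tables its group means lay between 1235 and 1505 FPKM with an SD of at most 63.8. Its difference at 5 weeks did not pass (log2 difference 2.98 ± 0.60, adjusted p = 0.368).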
